A study of Gallus gallus with 15 samples.

Results

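Breast muscle of Jingyuan hens killed at 180 days of age was compared with breast muscle of hens killed at 126 days, using the 5 birds of each age, 10 of the 15 birds of the series (the other 5 were 42 days old). Jingyuan chickens are a Chinese local breed. Their slaughter groups weighed 2.03 ± 0.09 kg at 180 days and 1.68 ± 0.14 kg at 126 days per the labels. The younger age was chosen as the point of sexual maturity and the older one as a usual market age. All birds were hens reared on 1 farm with free access to feed and water, and polyA RNA of their breast muscle was sequenced in paired-end reads of 150 bases. Per the labels each library is from 1 chicken. The study's texts give more birds per age than the 5 libraries used here, and how the 5 were chosen is not stated. The labels name no treatment or genotype beside the breed. The only field named batch in the labels holds the slaughter age, so age cannot be told apart from the day of slaughter or of any later step, and the time of day is not given.

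Expression is given as FPKM (fragments per kilobase of transcript and per 1000000 mapped fragments), which is a level per unit of transcript length. Gene names often have several entries, whose FPKM were added up, and the 11515 gene names with a mean of at least 0.5 FPKM over the 10 birds were tested. FPKM values of a bird summed to between 437876 and 481698 at 180 days and to between 445023 and 478434 at 126 days, and between 15739 and 17479 names were above 0 at 180 days and between 15748 and 16290 at 126 days. The files hold no read counts, so the depth of each library is unknown. The labels name the samples both breast muscle and myoblast primary cells. Genes of the fast sarcomere, the contractile machinery of mature white muscle, summed to between 35610 and 50310 FPKM at 180 days and to between 36540 and 51980 FPKM at 126 days over the 14 of 22 listed symbols that were found, and TPM1 (tropomyosin) alone held between 11502 and 14633 FPKM at 180 days and between 11271 and 15721 FPKM at 126 days. Contractile genes at this level were found in all 10 birds, and the samples are called breast muscle here.

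Chicken breast muscle consists almost wholly of fast glycolytic fibres. Each fibre is a bundle of sarcomeres joined at Z-discs, where proteins that respond to stretch and load are anchored, and desmin filaments tie the Z-discs of neighbouring myofibrils together. A sleeve of basement membrane (type IV collagen, laminins) surrounds the fibre, and fibroblasts between the fibres make the fibrillar collagens and proteoglycans of the connective tissue, whose amount bears on the tenderness of meat. Endothelial cells, adipocytes, macrophages and other blood cells share the tissue, so that a bulk library mixes their RNA with that of the fibres.

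One bird at each age stood apart. PTPRC (CD45), carried by all leukocytes, was at 54.9, 2.85, 3.47, 2.58 and 2.22 FPKM in the 180-day birds, in the order of replicates 1 to 5 that is kept throughout, and at 11.2, 4.23, 4.99, 3.86 and 5.75 FPKM in the 126-day birds. JCHAIN, the joining chain of secreted antibodies, had 486.8, 1.73, 5.39, 2.45 and 0.98 FPKM at 180 days and 56.8, 20.5, 34.4, 26.1 and 25.2 FPKM at 126 days. Replicate 1 was the highest bird of its age for both genes, and its mean correlation with the other 4 birds of its age (log2 scale) was 0.839 at 180 days and 0.900 at 126 days, against 0.921 to 0.943 for the other birds. Summed over a list of markers, T cell genes reached 260.9 FPKM in the 180-day replicate 1 and 12.8 to 19.0 FPKM in the other 180-day birds, and B and plasma cell genes reached 3142 FPKM, against 7.07 to 39.0 FPKM. In the 126-day replicate 1 the 2 sums were 71.5 and 342.6 FPKM, with 25.3 to 30.5 and 132.9 to 203.0 FPKM in the other 126-day birds. This 126-day bird also had the highest summed level of fibroblast genes (990.1 FPKM, against 163.9 to 230.2 FPKM in the others of its age). Both birds belong to the design and stay in the main comparison, and the results below are also given without the pair, that is over 4 birds of each age.

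**Figure D1:**
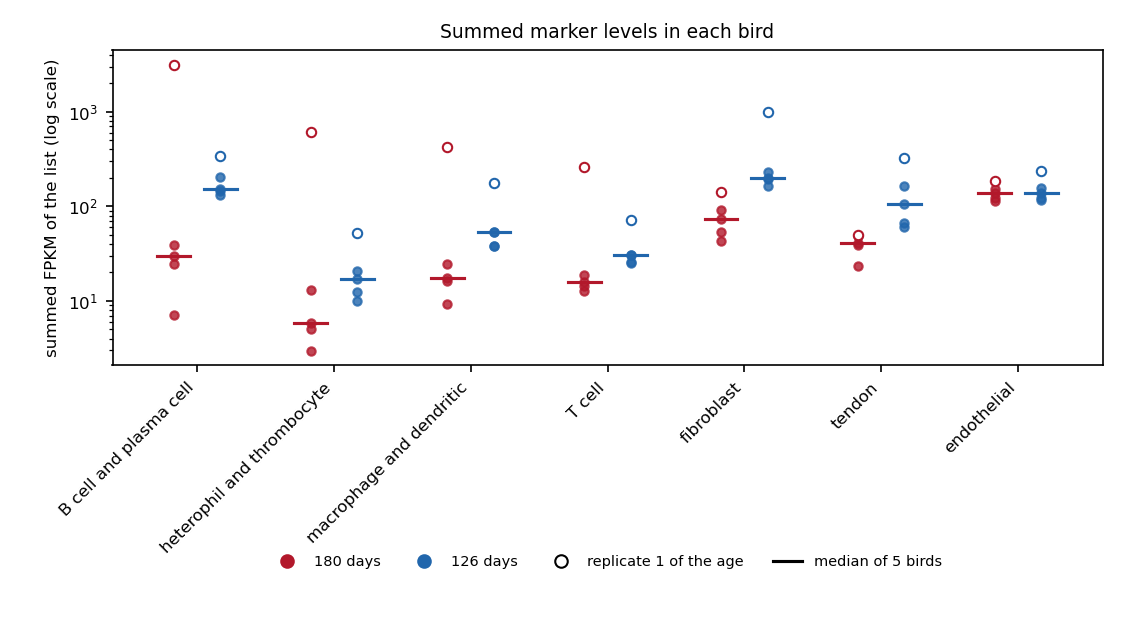
Summed FPKM of the markers of 7 cell types in each bird (log axis), with 180 days left of 126 days and open circles for replicate 1 of each age. The B cell sum of the 180-day replicate 1 lies at 3142 FPKM, above all others, and the fibroblast sums of all 180-day birds (43.4 to 140.5 FPKM) lie below those of all 126-day birds (163.9 to 990.1 FPKM).

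Of the 11515 genes, 54 rose and 52 fell at 180 days relative to 126 days (limma on log2(FPKM + 0.1)), with an adjusted p under 0.05 and a log2 fold change of 1 or more in either direction. Fold changes are given on the log2 scale, 180 days over 126 days, ± the standard error (SE) of the fit, with n = 5 birds of each age, or 4 of each where both replicates 1 are left out. These 106 differentially expressed genes (DEGs) are 0.921% of the genes tested, with 0.469% higher and 0.452% lower. By adjusted p alone 144 genes passed (1.25%), 84 of them higher (0.729%) and 60 lower (0.521%), and 1818 had an unadjusted p under 0.05. The ages did not overlap in any of the 10 birds for 104 of the 106 DEGs, and for 496 of all genes tested (4.31%). Genes that pass such a test tend not to overlap, so the 104 add no separate support. Without both replicates 1, 108 genes were higher and 228 lower (336 DEGs, 3.06% of 10971 tested, with 4.48% past the adjusted p alone), and 99 of the 106 were DEGs again. Of the 106, 105 had an adjusted p under 0.05 in the same direction there, the exception being ACSL1. Over all genes tested the median fold change was 0.005. Quantile normalization moved the balance to 28 higher and 56 lower, and 88 of the 106 carry a gene symbol, 44 in each direction.

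The extracellular matrix was the gene list with the most calls, all of them lower at 180 days. Of 42 collagen and matrix symbols 39 were tested, 5 were lower past the test (COL4A1, COL18A1, SPARC, TNC and DPT), none was higher, and 35 had a negative fold change. Of all genes tested, 0.521% were lower by the same rule. The median of the 39 was -1.54 on the log2 scale, against 0.005 over all genes, and for 16 of the 39 all 180-day birds lay below all 126-day birds, as they did for 1.76% of all genes. Without both replicates 1, 22 of 38 matrix genes were lower past the test, against 2.89% of all genes, and the median was -1.41. The exceptions in sign were PLOD1, P4HA2, TIMP2 and MMP9, none past the test. Over the other settings the median ran between -1.71 and -1.19. The summed level of the list overlapped between the ages. It was 1012 FPKM in the 180-day replicate 1, inside the 835.4 to 3826 FPKM of the 126-day birds. In the other 180-day birds it was 394.0 to 501.1 FPKM. Leaving out the 180-day replicate 1 takes this overlap away, so the count without the pair follows in part from that choice. The count of genes lower rested on single birds: it was 23 without the 180-day replicate 1, 7 without the 126-day replicate 1, 3 without the 126-day replicate 5, 1 without the 126-day replicate 2 or 4, and 0 without any other 180-day bird or the 126-day replicate 3.

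**Figure D2:**
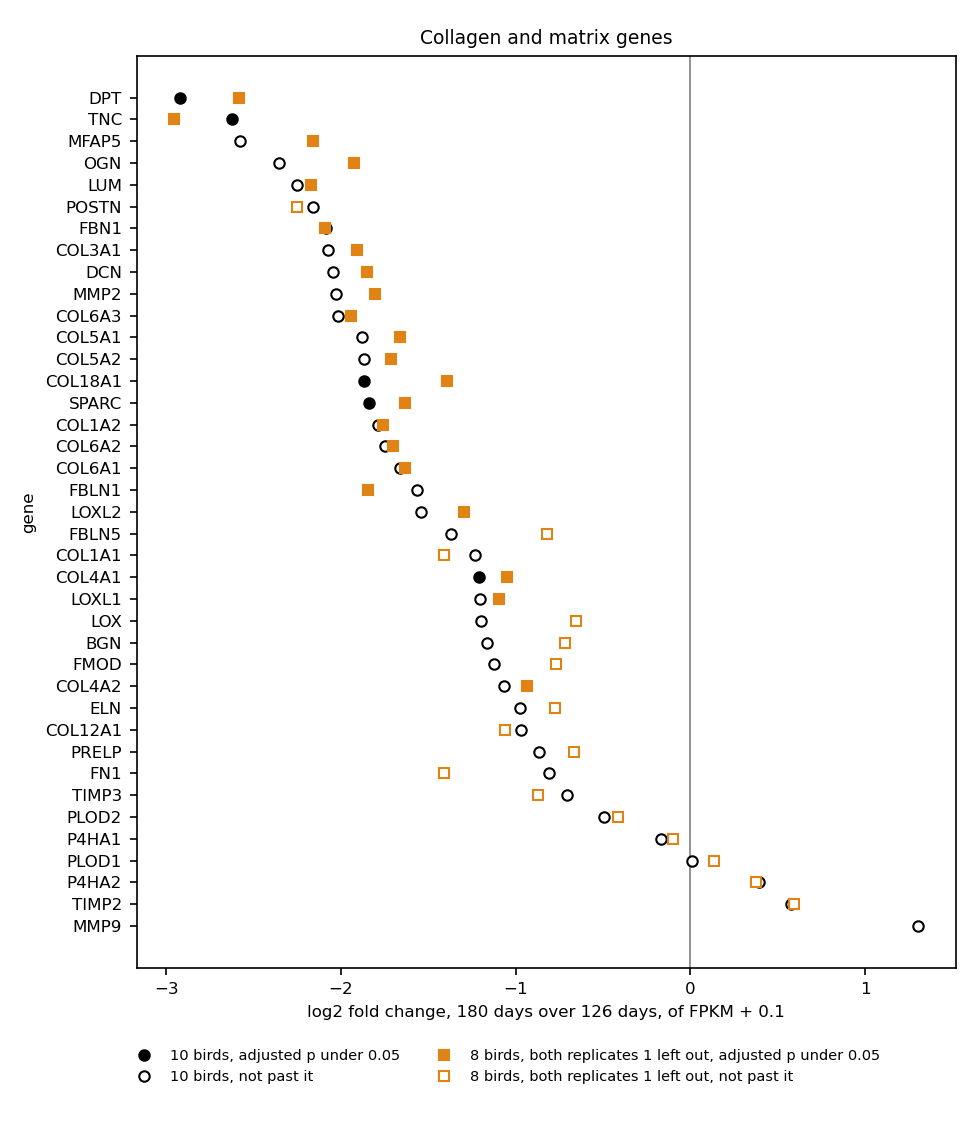
Log2 fold change at 180 days over 126 days of each of the 39 collagen and matrix genes tested, over 10 birds (circles) and over 8 birds with both replicates 1 left out (squares, 38 genes, without MMP9), with filled symbols for an adjusted p under 0.05. Over 10 birds 35 of the 39 lie left of 0, and 5 circles but 22 squares are filled.

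In the basement membrane, COL4A1, a chain of the type IV collagen network, had 36.1, 27.8, 29.1, 33.3 and 29.3 FPKM at 180 days and 131.7, 57.3, 67.8, 71.04 and 52.6 FPKM at 126 days. The ages did not overlap, and the log2 fold change was -1.21 ± 0.22 (adjusted p = 0.03), and -1.05 ± 0.14 (adjusted p = 0.00872) without both replicates 1. COL18A1, a basement membrane collagen that carries endostatin at its end, had 4.33, 12.3, 12.1, 7.18 and 6.27 FPKM in the older birds and 59.8, 25.96, 23.03, 30.96 and 17.6 FPKM in the younger ones, a log2 fold change of -1.87 ± 0.35 (adjusted p = 0.0321), and -1.39 ± 0.26 (adjusted p = 0.0211) without the pair. A pair of laminin chains outside the list, chosen after their values were seen, fell as well. LAMB1, the laminin beta 1 chain, had 7.31, 7.0, 5.88, 4.64 and 3.79 FPKM at 180 days, against 46.8, 17.2, 18.3, 21.5 and 13.2 FPKM at 126 days. For LAMB1 the change was -1.91 ± 0.31 (adjusted p = 0.0221), and -1.72 ± 0.22 (adjusted p = 0.00705) without the pair. LAMA2, the alpha chain of muscle laminin, had 4.09, 5.3, 4.28, 3.52 and 2.35 FPKM at 180 days and 32.9, 10.2, 13.6, 16.2 and 8.61 FPKM at 126 days. LAMA2 gave -1.91 ± 0.34 (adjusted p = 0.0286) over 10 birds and -1.64 ± 0.28 (adjusted p = 0.0162) without the pair. For LAMA2 the sum of its 5 entries decided the direction, since its single highest entry gave 1.46 (adjusted p = 0.728, the highest over its alternatives, against 0.0081 as the lowest).

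Matricellular proteins and small matrix proteins had some of the largest falls. SPARC, which binds collagen and is made while matrix is laid down, had 55.01, 49.4, 26.8, 30.1 and 27.1 FPKM at 180 days and 347.9, 91.6, 99.7, 93.8 and 118.2 FPKM at 126 days. For SPARC the change was -1.84 ± 0.36 (adjusted p = 0.0367), and -1.63 ± 0.20 (adjusted p = 0.00691) without the pair. The 126-day replicate 1 was the highest bird and the 180-day birds stayed below the lowest 126-day bird. TNC (tenascin C) had 5.59, 2.95, 0.85, 1.57 and 3.14 FPKM at 180 days and 13.8, 12.2, 25.4, 5.98 and 29.7 FPKM at 126 days, with replicates 3 and 5 of the younger age highest. TNC gave -2.62 ± 0.51 (adjusted p = 0.0361) over 10 birds and -2.96 ± 0.53 (adjusted p = 0.0188) without the pair. DPT (dermatopontin), which binds decorin, was at 2.8, 4.4, 1.27, 1.57 and 0.76 FPKM in the 180-day birds, against 55.98, 9.88, 13.4, 9.46 and 8.74 FPKM in the 126-day birds. For DPT the change was -2.92 ± 0.55 (adjusted p = 0.0315), and -2.58 ± 0.42 (adjusted p = 0.0151) without the pair. MGP (matrix Gla protein), an inhibitor of calcification, had 4.82, 1.76, 2.35, 9.48 and 2.76 FPKM at 180 days and 132.1, 33.8, 14.5, 34.9 and 33.1 FPKM at 126 days. MGP gave -3.38 ± 0.55 (adjusted p = 0.0221) over 10 birds and -3.04 ± 0.48 (adjusted p = 0.0132) without the pair. The 2 ages came nearest to each other at 9.48 FPKM in the highest 180-day bird and 14.5 FPKM in the lowest 126-day bird. MXRA5, a secreted matrix protein with leucine-rich repeats, kept its call with any single bird left out: it had 3.52, 2.71, 2.06, 1.07 and 1.87 FPKM at 180 days and 35.03, 9.45, 13.02, 12.6 and 11.6 FPKM at 126 days. For MXRA5 the change was -2.73 ± 0.37 (adjusted p = 0.0108), and -2.59 ± 0.26 (adjusted p = 0.00403) without the pair.

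Among the 12 largest falls were also ADAMTS20, a secreted metalloproteinase, with 1.19, 0.77, 1.03, 0.35 and 3.05 FPKM at 180 days and 42.7, 9.93, 3.94, 21.7 and 8.13 FPKM at 126 days (-3.48 ± 0.63, adjusted p = 0.0286). ABI3BP, a matrix protein that binds the adaptor ABI3, had 4.05, 4.46, 3.24, 1.86 and 1.88 FPKM at 180 days and 58.5, 8.59, 11.99, 11.6 and 23.9 FPKM at 126 days (-2.56 ± 0.47, adjusted p = 0.0307). EGFL6, a secreted protein with EGF repeats, lay between 0.34 and 0.79 FPKM at 180 days and between 1.85 and 11.2 FPKM at 126 days (-2.58 ± 0.48, adjusted p = 0.0305), and OC3 between 0.22 and 0.86 FPKM at 180 days and between 1.58 and 10.7 FPKM at 126 days (-2.72 ± 0.49, adjusted p = 0.0286). CXCL14, a chemokine, lay between 0.53 and 2.47 FPKM in the older birds and between 3.23 and 20.7 FPKM in the younger birds (-2.5 ± 0.52, adjusted p = 0.0453). All 5 genes were lower in every 180-day bird than in any 126-day bird, and all 5 passed without the pair (adjusted p of 0.0133 to 0.024). The 12 largest falls were taken from DEGs whose ages do not overlap without the pair, so neither adds separate support. LTBP2, which belongs to the family of proteins that hold latent TGF-beta in the matrix, had 2.16, 4.8, 3.93, 3.37 and 4.63 FPKM at 180 days and 11.8, 6.83, 6.74, 8.44 and 11.4 FPKM at 126 days. LTBP2 gave -1.25 ± 0.26 (adjusted p = 0.0416) over 10 birds and -0.96 ± 0.21 (adjusted p = 0.0333) without the pair. Outside the lists, and chosen after their values were seen, THBS1 (thrombospondin 1, an activator of latent TGF-beta) and COL8A1 (a short-chain collagen) were also DEGs, with log2 fold changes of -1.67 ± 0.32 (adjusted p = 0.0315) and -1.42 ± 0.30 (adjusted p = 0.0456).

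Several fibrillar collagens and proteoglycans of the connective tissue did not pass over 10 birds and passed without the pair. The examples here were chosen after their values were seen, and not all members behaved so. COL1A1 gave -1.23 ± 0.57 (adjusted p = 0.326) and FN1 gave -0.81 ± 0.85 (adjusted p = 0.727) over 10 birds, and neither passed without the pair. COL3A1 had 71.7, 27.9, 23.04, 23.6 and 13.7 FPKM at 180 days and 476.8, 60.1, 77.8, 79.4 and 112.5 FPKM at 126 days, with replicate 1 highest at each age and the 180-day replicate 1 inside the range of the younger birds. For COL3A1 the change was -2.07 ± 0.55 (adjusted p = 0.0914), and -1.91 ± 0.25 (adjusted p = 0.00705) without the pair. COL1A2 had 27.9, 10.02, 7.27, 7.05 and 5.55 FPKM at 180 days and 103.6, 15.3, 21.2, 22.2 and 53.8 FPKM at 126 days. COL1A2 gave -1.79 ± 0.54 (adjusted p = 0.135) over 10 birds and -1.76 ± 0.35 (adjusted p = 0.024) without the pair. COL6A3, a chain of the microfibrils around fibres, had 17.1, 9.86, 7.52, 5.82 and 2.91 FPKM at 180 days and 84.7, 22.7, 25.99, 18.7 and 26.4 FPKM at 126 days, without overlap. For COL6A3 the change was -2.02 ± 0.48 (adjusted p = 0.0637), and -1.94 ± 0.32 (adjusted p = 0.0156) without the pair. DCN (decorin), a proteoglycan of collagen fibrils, had 76.3, 49.4, 36.8, 25.5 and 15.02 FPKM at 180 days and 544.6, 87.7, 102.8, 111.5 and 118.7 FPKM at 126 days. DCN gave -2.05 ± 0.52 (adjusted p = 0.0788) over 10 birds and -1.85 ± 0.31 (adjusted p = 0.0162) without the pair. LUM (lumican) ranged over 2.26 to 16.4 FPKM at 180 days and 20.9 to 98.6 FPKM at 126 days, and gave -2.25 ± 0.52 (adjusted p = 0.0602) over 10 birds and -2.17 ± 0.33 (adjusted p = 0.0116) without the pair. MMP2 (gelatinase A) ranged over 6.41 to 27.3 FPKM at 180 days and 30.7 to 209.2 FPKM at 126 days, with -2.03 ± 0.52 (adjusted p = 0.0777) over 10 birds and -1.8 ± 0.26 (adjusted p = 0.0101) without the pair. FBN1 (fibrillin 1) overlapped, at 1.12 to 8.78 FPKM at 180 days and 5.96 to 37.0 FPKM at 126 days, with -2.09 ± 0.55 (adjusted p = 0.0903) over 10 birds and -2.09 ± 0.39 (adjusted p = 0.0211) without the pair.

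**Figure D3:**
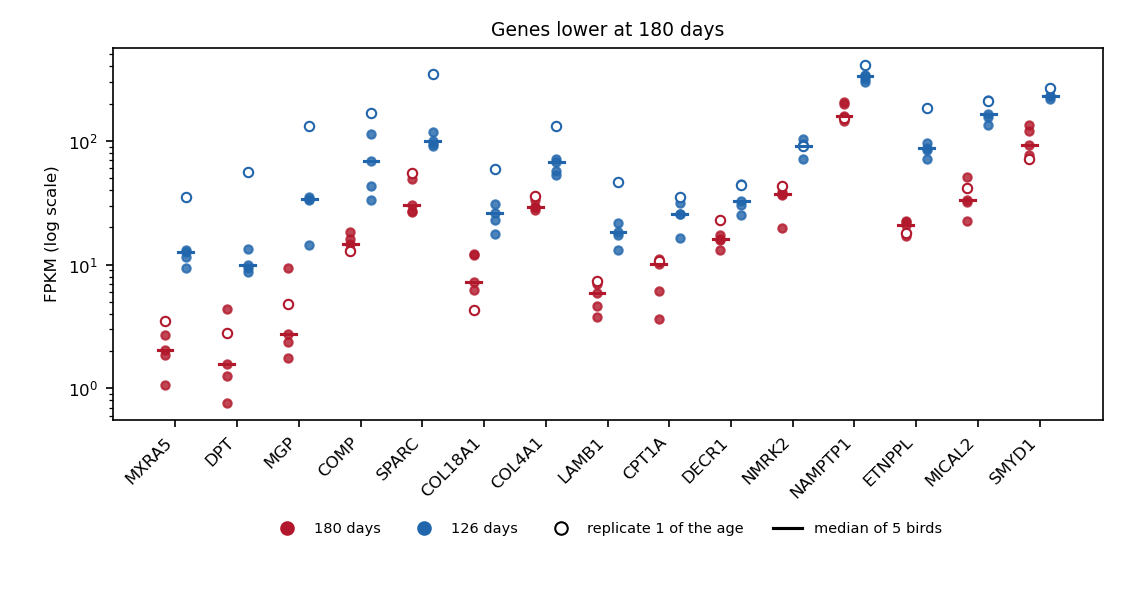
FPKM of 15 genes lower at 180 days in each bird (log axis), with 180 days left of 126 days, bars at the median of 5 birds and open circles for replicate 1. The ages do not overlap for any of the 15, which follows in part from choosing genes past the test. The open circle of 126 days is the highest point of its age for the matrix genes MXRA5 to LAMB1.

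Markers of fibroblasts and tendon cells, which make matrix, included 3 of the falls. All 8 fibroblast markers tested had a negative fold change over 10 birds (median -1.88), and 7 of 8 without the pair (median -1.81). DPT alone was past the test over 10 birds, where 0.521% of all genes were lower. Without the pair 6 of 8 were, where 2.89% of all genes were lower. The 180-day replicate 1 had the highest fibroblast sum of its age (140.5 FPKM, against 43.4 to 90.7 FPKM). The count without the pair therefore depends in part on leaving it out. Of the 9 listed fibroblast markers, 4 are matrix genes counted above. PDGFRA, the receptor that marks these cells, had 7.16, 2.07, 1.42, 1.84 and 0.68 FPKM at 180 days and 19.7, 4.0, 3.84, 7.41 and 5.43 FPKM at 126 days, and was chosen after its values were seen. For PDGFRA the change was -1.7 ± 0.57 (adjusted p = 0.171), and -1.77 ± 0.34 (adjusted p = 0.0227) without the pair. Of the 5 tendon markers tested, which share no member with the matrix list, COMP and TNMD were lower past the test, where 0.521% of all genes were. The tendon median was -2.26 (-1.90 without the pair). COMP, which links collagens, had 12.96, 13.1, 16.1, 18.4 and 14.6 FPKM at 180 days and 167.9, 43.2, 68.2, 33.1 and 114.1 FPKM at 126 days. COMP gave -2.26 ± 0.38 (adjusted p = 0.0237) over 10 birds and -1.9 ± 0.33 (adjusted p = 0.0168) without the pair. TNMD (tenomodulin), a membrane protein of tendon cells, had 0, 0.25, 0.28, 0.1 and 0.72 FPKM at 180 days and 1.39, 2.42, 1.03, 1.26 and 4.07 FPKM at 126 days. For TNMD the change was -2.69 ± 0.58 (adjusted p = 0.0472), and -2.38 ± 0.52 (adjusted p = 0.0333) without the pair. In these bulk samples fewer cells of a type and less RNA per cell cannot be told apart. The summed tendon level was between 23.5 and 49.9 FPKM at 180 days and between 61.02 and 323.2 FPKM at 126 days, and the part of fibroblasts and tendon in the matrix result was not tested. Of 13 endothelial markers none passed and the median was 0.04, and they summed to between 114.1 and 186.5 FPKM at 180 days and between 117.7 and 236.6 FPKM at 126 days.

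Leukocyte genes gave no call in the main comparison of 10 birds and several without the pair. None of the 20 T cell, 11 B and plasma cell, 12 macrophage and dendritic and 8 heterophil and thrombocyte genes tested passed in the main comparison. With replicate number as a block in the fit of the 10 birds, 4 macrophage genes were lower. With array weights, which count birds that deviate for less, 4 macrophage genes and 1 B cell gene were lower. Without both replicates 1, 5 of 12 macrophage genes, 2 of 14 T cell genes, 2 of 4 B cell genes and 1 of 5 heterophil and thrombocyte genes were lower at 180 days, where 2.89% of all genes were, and none was higher. Both birds were left out because they are rich in leukocyte transcripts, so these counts follow in part from that choice. The counts are therefore not a test of leukocyte genes between the ages. Fewer T cell, B cell and heterophil genes also reached the minimum FPKM without the pair. C1QA, a chain of the complement factor that resident macrophages make, had 7.68, 0.67, 1.31, 1.62 and 0.68 FPKM at 180 days and 19.01, 5.49, 7.27, 4.28 and 6.21 FPKM at 126 days. C1QA gave -2.18 ± 0.60 (adjusted p = 0.103) over 10 birds and -2.4 ± 0.30 (adjusted p = 0.00691) without the pair. C1QB, chosen after its values were seen, gave -2.42 ± 0.61 (adjusted p = 0.0742) over 10 birds and -2.74 ± 0.29 (adjusted p = 0.00471) without the pair. CSF1R, the receptor of the macrophage growth factor, had 35.05, 2.26, 2.15, 3.41 and 1.18 FPKM at 180 days and 14.9, 5.54, 6.14, 5.09 and 6.56 FPKM at 126 days. For CSF1R the change was -0.89 ± 0.73 (adjusted p = 0.623), and -1.42 ± 0.28 (adjusted p = 0.0239) without the pair. JCHAIN gave -2.19 ± 1.33 (adjusted p = 0.474) over 10 birds and -3.52 ± 0.42 (adjusted p = 0.00691) without the pair. The antibody light chain gene IGLL1, chosen after its values were seen, gave -1.64 ± 1.26 (adjusted p = 0.592) and -2.85 ± 0.49 (adjusted p = 0.0165). S100A12, a protein of heterophils and chosen likewise, had 287.97, 1.81, 0.08, 1.43 and 0 FPKM at 180 days and 8.91, 2.93, 1.89, 1.67 and 4.53 FPKM at 126 days. CD3E of the T cell receptor complex had 36.9, 1.72, 2.79, 2.58 and 2.13 FPKM at 180 days and 10.1, 2.82, 4.73, 4.13 and 4.81 FPKM at 126 days. CD3E gave -0.27 ± 0.71 (adjusted p = 0.911) over 10 birds and -0.81 ± 0.23 (adjusted p = 0.0757) without the pair. IL7R, the interleukin 7 receptor, gave -0.56 ± 0.64 (adjusted p = 0.756) and -0.92 ± 0.31 (adjusted p = 0.12) over the same sets of birds, and PTPRC gave -0.14 ± 0.75 (adjusted p = 0.961) and -0.74 ± 0.20 (adjusted p = 0.0638). The summed level of the remaining 4 birds of 180 days was below that of the remaining 126-day birds for T cells, B and plasma cells and macrophages. For heterophils and thrombocytes they overlapped, since the 13.2 FPKM of 1 older bird lay inside the 9.97 to 20.9 FPKM of the younger ones.

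Among enzymes of energy metabolism, 3 of fatty acid oxidation fell. Of 32 genes of fatty acid uptake and oxidation 3 were lower past the test and none higher, with a median of -0.12, where 0.521% of all genes were lower by the same rule. Without the pair 3 of 31 were lower, with ACAD9, an acyl-CoA dehydrogenase chosen after its values were seen, in place of ACSL1. The count was 0 without the 126-day replicate 1, 2 or 4 or the 180-day replicate 2 or 3. CPT1A, which makes acylcarnitines at the outer mitochondrial membrane, had 10.6, 10.1, 11.1, 6.15 and 3.61 FPKM at 180 days and 35.4, 31.5, 25.7, 25.4 and 16.6 FPKM at 126 days, without overlap. For CPT1A the change was -1.75 ± 0.32 (adjusted p = 0.0286), and -1.76 ± 0.34 (adjusted p = 0.0231) without the pair. DECR1, needed to oxidise polyunsaturated fatty acids, had 22.8, 16.1, 17.5, 15.9 and 13.1 FPKM at 180 days and 44.3, 32.7, 30.4, 45.1 and 25.1 FPKM at 126 days. DECR1 gave -1.04 ± 0.20 (adjusted p = 0.0328) over 10 birds and -1.06 ± 0.19 (adjusted p = 0.0175) without the pair. ACSL1, which activates long-chain fatty acids with coenzyme A, had 17.6, 21.6, 29.1, 37.7 and 26 FPKM at 180 days and 55.2, 65.1, 36.3, 76.1 and 53.9 FPKM at 126 days. For ACSL1 the change was -1.12 ± 0.23 (adjusted p = 0.0453), and -0.99 ± 0.24 (adjusted p = 0.051) without the pair. The ages overlapped for ACSL1, since the 180-day replicate 4 lay above the 126-day replicate 3. The 29 others did not pass, among them CPT2 at 0.07 ± 0.18 (adjusted p = 0.903) and HADHA at -0.29 ± 0.18 (adjusted p = 0.472) (carnitine acyltransferase and a subunit of the trifunctional protein). Of 58 genes of oxidative phosphorylation none passed, and the median was -0.03.

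NAD metabolism had 3 calls among 20 genes, 2 lower and 1 higher, where 0.521% of all genes were lower and 0.729% higher by the same rule. NMRK2, a kinase of nicotinamide riboside found mainly in muscle, had 43.5, 37.5, 38.4, 19.9 and 36.2 FPKM at 180 days and 90.5, 91.2, 70.99, 94.03 and 104.1 FPKM at 126 days. NMRK2 gave -1.39 ± 0.20 (adjusted p = 0.0122) over 10 birds and -1.48 ± 0.22 (adjusted p = 0.0116) without the pair. The entry named NAMPTP1, which RefSeq's synonyms match to NAMPT (the enzyme that starts the salvage of nicotinamide), had 153.9, 207.5, 199.3, 160.3 and 143.8 FPKM at 180 days and 411.5, 313.7, 300.3, 336.9 and 341.8 FPKM at 126 days. For NAMPTP1 the change was -0.99 ± 0.15 (adjusted p = 0.0136), and -0.88 ± 0.15 (adjusted p = 0.0162) without the pair. It passed the test but not the fold limit of a DEG. Both kept an adjusted p under 0.05 with any single bird left out, but not in every alternative. With its highest entry NAMPTP1 had an adjusted p of 0.174, and the highest for NMRK2 over the alternatives was 0.18. SIRT4, a mitochondrial enzyme that uses NAD, was higher, with 5.5, 6.78, 3.91, 7.49 and 4.36 FPKM at 180 days and 2.39, 2.61, 2.11, 3.46 and 2.19 FPKM at 126 days. SIRT4 gave 1.09 ± 0.23 (adjusted p = 0.0462) over 10 birds and 1.06 ± 0.26 (adjusted p = 0.0457) without the pair. The call of SIRT4 was kept in 1 of the 10 fits with 1 bird left out, and its highest adjusted p over the alternatives was 0.138.

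The falls of MICAL2, ETNPPL, SMYD1 and DDX3X passed the test with any single bird left out. MICAL2, which oxidises actin filaments and so takes them apart, had 41.5, 31.8, 22.6, 33.3 and 51.2 FPKM at 180 days and 210.7, 134.5, 214.3, 165.1 and 156.3 FPKM at 126 days, without overlap. For MICAL2 the change was -2.31 ± 0.22 (adjusted p = 0.00113), and -2.31 ± 0.24 (adjusted p = 0.00471) without the pair. ETNPPL, which breaks down phosphoethanolamine, a precursor of membrane phospholipids, had 18.03, 22.2, 22.6, 20.8 and 17.04 FPKM at 180 days and 183.3, 70.9, 96.1, 87.3 and 85.1 FPKM at 126 days. ETNPPL gave -2.3 ± 0.23 (adjusted p = 0.00132) over 10 birds and -2.03 ± 0.15 (adjusted p = 0.000831) without the pair. SMYD1, a muscle methyltransferase that zebrafish and mice need for sarcomere assembly, had 71.8, 76.4, 134.02, 92.98 and 119.7 FPKM at 180 days and 269.4, 260.6, 229.1, 216.8 and 232.4 FPKM at 126 days. For SMYD1 the change was -1.33 ± 0.18 (adjusted p = 0.0108), and -1.18 ± 0.18 (adjusted p = 0.012) without the pair. DDX3X, an RNA helicase of translation, had 522.4, 418.2, 461.1, 427.1 and 410.8 FPKM at 180 days and 929.8, 1045, 1548, 956.2 and 996.6 FPKM at 126 days. DDX3X gave -1.27 ± 0.16 (adjusted p = 0.00903) over 10 birds and -1.38 ± 0.17 (adjusted p = 0.00691) without the pair. With any single bird left out the adjusted p was at most 0.00758 for MICAL2, 0.00817 for ETNPPL, 0.043 for SMYD1 and 0.037 for DDX3X. SMYD1 and DDX3X were chosen after their values were seen, as was FKBP1B, which binds the calcium release channel and had 6.12, 2.36, 3.79, 1.99 and 2.23 FPKM at 180 days and 19.2, 19.6, 10.1, 9.18 and 16.3 FPKM at 126 days. For FKBP1B the change was -2.2 ± 0.33 (adjusted p = 0.0149), and -2.34 ± 0.29 (adjusted p = 0.00691) without the pair. DOK7, which activates the receptor kinase of the neuromuscular junction, had 14.4, 10.3, 12.3, 16.1 and 16.97 FPKM at 180 days and 21.7, 24.7, 36.8, 29.6 and 30.6 FPKM at 126 days, the only call among 11 junction genes. DOK7 gave -1.03 ± 0.19 (adjusted p = 0.0286) over 10 birds and -1.14 ± 0.20 (adjusted p = 0.0165) without the pair. A single call among 11 genes, where 0.521% of all genes were lower, is not a result about the junction list.

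Genes of the Z-disc and of the response to stretch were, with those of the clock, the lists with the most rises over 10 birds, 3 each. Of 21 tested 3 were higher past the test (ANKRD2, HSPB7 and LMCD1), none was lower, and the median was 0.32 against 0.005 over all genes. By the same rule 0.729% of all genes were higher. Without the pair 3 were higher and ABRA was lower. The count of genes higher ran from 1 to 5 over the other settings. It was 1 without the 180-day replicate 2, and also when a single top entry stood for each name. With 1 bird left out, ANKRD2 passed in 10 of 10 fits, LMCD1 in 9 and HSPB7 in 3. Summed levels overlapped, at 6694 to 9669 FPKM at 180 days and 4082 to 14460 FPKM at 126 days. Replicates 3 (14460 FPKM) and 5 (10030 FPKM) of 126 days had the highest sums. ANKRD2, an ankyrin repeat protein that binds titin and responds to stretch, had 15.6, 10.1, 28.5, 6.64 and 6.84 FPKM at 180 days and 1.13, 0.65, 1.17, 0.44 and 0.06 FPKM at 126 days. The lowest older bird was well above the highest younger one, and the log2 fold change was 4.2 ± 0.58 (adjusted p = 0.0108), and 4.33 ± 0.64 (adjusted p = 0.0104) without the pair. HSPB7, a small heat shock protein of striated muscle, had 134.8, 196.1, 151.9, 187.2 and 275.3 FPKM at 180 days and 15.1, 103.7, 21.2, 31.1 and 78.5 FPKM at 126 days. For HSPB7 the change was 2.26 ± 0.47 (adjusted p = 0.0453), and 2.04 ± 0.45 (adjusted p = 0.036) without the pair. LMCD1, a LIM protein of the Z-disc and nucleus, had 17.2, 30.4, 44.5, 13.7 and 22.5 FPKM at 180 days and 3.67, 6.49, 9.0, 5.73 and 4.65 FPKM at 126 days. LMCD1 gave 2.04 ± 0.32 (adjusted p = 0.0182) over 10 birds and 2.0 ± 0.34 (adjusted p = 0.0162) without the pair. CSRP3 (muscle LIM protein), a partner of these proteins at the Z-disc, had 3.75, 4.5, 7.87, 17.4 and 15.1 FPKM at 180 days and 0.59, 0.87, 0.66, 2.77 and 4.92 FPKM at 126 days, with overlap, and missed the threshold. For CSRP3 the change was 2.47 ± 0.61 (adjusted p = 0.071), and 2.46 ± 0.62 (adjusted p = 0.0539) without the pair. ANKRD1, the close relative of ANKRD2, gave -0.58 ± 0.52 (adjusted p = 0.665).

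**Figure D4:**
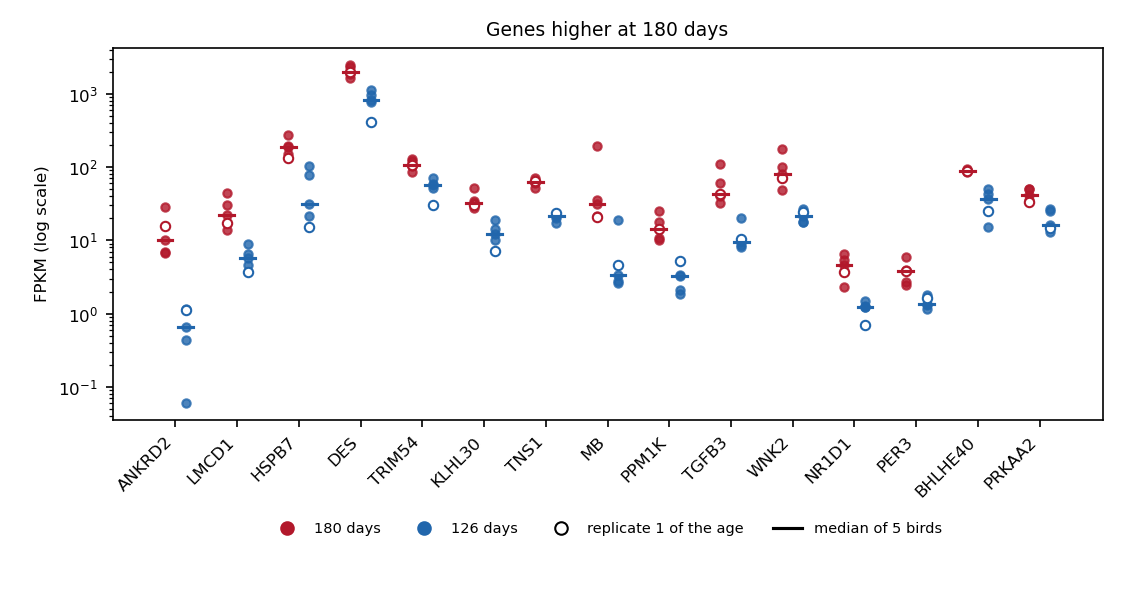
FPKM of 15 genes higher at 180 days in each bird (log axis), with 180 days left of 126 days, bars at the median of 5 birds and open circles for replicate 1. The ages do not overlap for any of the 15, which follows in part from choosing genes past the test. MB has a single high bird at each age (192.6 FPKM at 180 days and 18.7 FPKM at 126 days).

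Further rises included genes of the cytoskeleton. DES (desmin) had 1956, 1621, 1888, 2294 and 2481 FPKM at 180 days and 414.8, 824.9, 1137, 781.1 and 949.5 FPKM at 126 days, without overlap. DES gave 1.38 ± 0.25 (adjusted p = 0.0286) over 10 birds and 1.16 ± 0.18 (adjusted p = 0.0128) without the pair. TNS1 (tensin 1), which ties integrins to actin, had 63.6, 63.2, 61.5, 51.5 and 71.6 FPKM at 180 days and 23.6, 23.1, 17.01, 21.4 and 20.1 FPKM at 126 days. For TNS1 the change was 1.56 ± 0.14 (adjusted p = 0.0011), and 1.6 ± 0.15 (adjusted p = 0.00403) without the pair. Both were chosen after their values were seen, and both calls rested on summing their entries: the single highest entry gave 1.84 for DES (adjusted p = 0.798) and 0.39 for TNS1 (adjusted p = 0.967), each the highest p over the alternatives, of which the lowest were 0.00458 and 0.000164. KLHL30, a kelch-like protein of striated muscle, had 30.6, 27.6, 34.2, 32.7 and 51.7 FPKM at 180 days and 7.11, 14.4, 12.2, 10.02 and 19.04 FPKM at 126 days, the only call among 5 muscle kelch genes. KLHL30 gave 1.53 ± 0.26 (adjusted p = 0.0237) over 10 birds and 1.39 ± 0.24 (adjusted p = 0.0166) without the pair. TRIM54 (MuRF3), a ubiquitin ligase bound to microtubules and the sarcomere, had 106.5, 102.7, 127.6, 84.96 and 122.3 FPKM at 180 days and 30.6, 58.8, 51.7, 57.8 and 70.4 FPKM at 126 days, alone among 20 genes of atrophy and proteolysis. For TRIM54 the change was 1.05 ± 0.21 (adjusted p = 0.0382), and 0.86 ± 0.16 (adjusted p = 0.0215) without the pair. By the same rule 0.729% of all genes were higher, so neither KLHL30 nor TRIM54 gives a result about its list. RTKN had 3.35, 5.14, 4.55, 3.44 and 4.32 FPKM at 180 days and 0.95, 0.72, 0.77, 1.19 and 1.12 FPKM at 126 days, with the smallest SE among the 12 largest rises. RTKN gave 2.02 ± 0.23 (adjusted p = 0.00398) over 10 birds and 2.1 ± 0.23 (adjusted p = 0.00471) without the pair.

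Several signalling genes rose. TGFB3, a ligand of the TGF-beta family, had 43.2, 40.8, 59.9, 32.8 and 109.3 FPKM at 180 days and 10.3, 8.66, 9.62, 8.02 and 20.3 FPKM at 126 days. For TGFB3 the change was 2.27 ± 0.33 (adjusted p = 0.0122), and 2.32 ± 0.39 (adjusted p = 0.0162) without the pair. It kept an adjusted p under 0.05 with any single bird left out (at most 0.0466), and its highest over the alternatives was 0.0537. TGFB3 was the only rise among 28 genes of its pathway, of which LTBP2 was the only fall over 10 birds. Without the pair 2 of these were higher and 2 lower, SKI and TGFBR3 (both chosen after their values were seen) beside them. PIK3C2B, a class II phosphoinositide kinase, had 15.4, 16.9, 10.9, 12 and 16.7 FPKM at 180 days and 3.6, 6.74, 4.15, 5.89 and 8.08 FPKM at 126 days, alone among 18 genes of the insulin-like growth factor axis. PIK3C2B gave 1.36 ± 0.24 (adjusted p = 0.0277) over 10 birds and 1.18 ± 0.23 (adjusted p = 0.024) without the pair. Of all genes tested 0.729% were higher and 0.521% lower. The single calls of TGFB3, LTBP2 and PIK3C2B are therefore not results about their lists. WNK2, a kinase of the WNK family that acts on ion transport, had 71.2, 100.8, 174.6, 48.8 and 79.5 FPKM at 180 days and 24.2, 26.8, 21.6, 17.9 and 17.96 FPKM at 126 days. For WNK2 the change was 2.01 ± 0.28 (adjusted p = 0.0122), and 2.12 ± 0.33 (adjusted p = 0.0125) without the pair. PRKAA2, the catalytic subunit of AMP-activated kinase that prevails in muscle, had 33.6, 41.3, 49.6, 50.5 and 35.6 FPKM at 180 days and 14.7, 12.9, 15.97, 24.9 and 26.4 FPKM at 126 days. PRKAA2 gave 1.19 ± 0.22 (adjusted p = 0.0309) over 10 birds and 1.18 ± 0.24 (adjusted p = 0.026) without the pair. RXRA, the partner of many nuclear receptors, had 47.04, 62.8, 88.9, 59.8 and 82.3 FPKM at 180 days and 17.9, 28.6, 25.6, 33.9 and 35.5 FPKM at 126 days. For RXRA the change was 1.27 ± 0.22 (adjusted p = 0.0279), and 1.24 ± 0.18 (adjusted p = 0.0097) without the pair. PRKAA2 and RXRA were chosen after their values were seen. PRTG, a receptor-like protein of the immunoglobulin family, lay between 0.67 and 1.77 FPKM at 180 days and between 0.01 and 0.11 FPKM at 126 days, a low level at both ages. PRTG gave 2.92 ± 0.42 (adjusted p = 0.0122) over 10 birds and 3.17 ± 0.36 (adjusted p = 0.00511) without the pair.

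Metabolic genes with a rise included MB (myoglobin), the oxygen store of red fibres, with 21.1, 21.6, 31.6, 35.4 and 192.6 FPKM at 180 days and 4.65, 3.39, 2.64, 18.7 and 2.82 FPKM at 126 days. The lowest older bird (21.1 FPKM) was close to the highest younger one (18.7 FPKM), and the call was kept in 2 of the 10 fits with 1 bird left out. For MB the change was 3.06 ± 0.65 (adjusted p = 0.047), and 3.28 ± 0.75 (adjusted p = 0.0399) without the pair. PPM1K, the mitochondrial phosphatase that switches on the breakdown of branched-chain amino acids, had 14.4, 10.6, 24.96, 10.3 and 17.6 FPKM at 180 days and 5.19, 3.33, 2.12, 1.84 and 3.24 FPKM at 126 days. PPM1K gave 2.28 ± 0.31 (adjusted p = 0.0108) over 10 birds and 2.49 ± 0.31 (adjusted p = 0.00691) without the pair. COA3, an assembly factor of cytochrome c oxidase, had 3.62, 3.89, 2.4, 2.29 and 1.51 FPKM at 180 days and 0.23, 0.5, 0.87, 0.56 and 0.34 FPKM at 126 days. For COA3 the change was 2.26 ± 0.37 (adjusted p = 0.0206), and 1.96 ± 0.34 (adjusted p = 0.0166) without the pair. CA12, a carbonic anhydrase of the cell surface, had 2.09, 15.4, 14.3, 6.02 and 2.91 FPKM at 180 days and 0, 0.09, 0.66, 0.71 and 0.36 FPKM at 126 days. CA12 gave 4.14 ± 0.70 (adjusted p = 0.0248) over 10 birds and 4.06 ± 0.60 (adjusted p = 0.0104) without the pair. CA9, the other DEG of this enzyme family and chosen after its values were seen, went the other way, at -1.21 ± 0.21 (adjusted p = 0.0248). TMEM63C, of a family of channels opened by membrane tension, had 6.28, 15.5, 29.7, 12.6 and 14.8 FPKM at 180 days and 3.21, 1.62, 2.49, 2.95 and 6.24 FPKM at 126 days. For TMEM63C the change was 2.19 ± 0.41 (adjusted p = 0.0307), and 2.5 ± 0.39 (adjusted p = 0.0125) without the pair.

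Of 16 circadian clock genes 3 were higher past the test, where 0.729% of all genes were, and none was lower. Without the pair the same 3 were higher and NFIL3, chosen after its values were seen, was lower. With array weights 3 were higher and 2 lower. None was higher without the 180-day replicate 2, 3 or 5, and 1 was without the 180-day replicate 4 or the 126-day replicate 1 or 2. With the highest entry of each gene name none was higher. With 1 bird left out, NR1D1 passed in 6 of 10 fits, BHLHE40 in 5 and PER3 in 1. All 3 encode repressors of the clock loop, and whether repressors rose as a group was not tested. NR1D1 (REV-ERB alpha) had 3.65, 5.4, 6.49, 2.29 and 4.65 FPKM at 180 days and 0.69, 1.24, 1.27, 1.48 and 1.22 FPKM at 126 days. NR1D1 gave 1.8 ± 0.30 (adjusted p = 0.0239) over 10 birds and 1.69 ± 0.30 (adjusted p = 0.0168) without the pair. PER3 had 3.77, 2.69, 3.99, 2.49 and 5.87 FPKM at 180 days and 1.61, 1.35, 1.81, 1.15 and 1.33 FPKM at 126 days. For PER3 the change was 1.27 ± 0.26 (adjusted p = 0.0438), and 1.29 ± 0.28 (adjusted p = 0.0355) without the pair. BHLHE40 (DEC1) had 87.03, 84.6, 87.6, 92.3 and 95.4 FPKM at 180 days and 25.5, 42.5, 14.97, 50.5 and 37.01 FPKM at 126 days. BHLHE40 gave 1.51 ± 0.27 (adjusted p = 0.0294) over 10 birds and 1.44 ± 0.32 (adjusted p = 0.0363) without the pair. The older birds lay within 84.6 to 95.4 FPKM for BHLHE40 and the younger ones were spread over 15.0 to 50.5 FPKM. The activators ARNTL (BMAL1) and CLOCK, chosen after their values were seen, did not pass. They gave -0.95 ± 0.24 (adjusted p = 0.0759) and -0.46 ± 0.14 (adjusted p = 0.134). Both had all 180-day birds below all 126-day birds, as did 1.76% of all genes and no other clock gene. Whether activators fell as a group was not tested. Of the 16 clock genes 8 had a positive and 8 a negative fold change (median 0.09), and the other repressors and activators are not described. The labels do not give the time of day at which the birds were killed.

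The 13 lists with at least 1 call also include the cell cycle, where TPX2, a spindle assembly factor, was the only call of 20. It had 10.5, 6.06, 5.43, 8.96 and 8.44 FPKM at 180 days and 2.89, 3.4, 2.33, 3.9 and 4.49 FPKM at 126 days. For TPX2 the change was 1.18 ± 0.24 (adjusted p = 0.0392), and 1.02 ± 0.24 (adjusted p = 0.045) without the pair. As 0.729% of all genes were higher, this single call is not a result about the cell cycle. The other 24 lists, 10 of them cell type markers, had no member past the test in the main comparison of 10 birds, although 1818 genes had an unadjusted p under 0.05. None of 14 fast sarcomere genes passed (median 0.16), nor any of 31 genes of glycolysis and glycogen (median 0.05), where GAPDH held between 23362 and 38632 FPKM at 180 days and between 18082 and 30875 FPKM at 126 days (0.26 ± 0.24, adjusted p = 0.677). None of 33 heat shock and chaperone genes passed (median -0.18). HSPB7, a small heat shock protein that passed, was counted in the Z-disc list and not in this one. The summed level of the 33 genes was highest in 2 birds of 126 days, at 23860 FPKM in replicate 3 and 13910 FPKM in replicate 5, with 4128 to 9927 FPKM in the other 8 birds. None of 43 glycerophospholipid enzymes (median -0.01), 32 antioxidant and glutathione genes (median -0.01), 13 genes of carnosine, beta-alanine and taurine (median -0.10) or 28 of calcium handling (median 0.13) passed either. Without the pair, CHKA was lower among 41 glycerophospholipid enzymes, CAMK2A higher among 28 genes of calcium handling, PPP1R3C higher among 30 of glycolysis and glycogen, and 3 of 26 immediate early genes, BTG1 and SIK1 among them, were lower. Of all genes in that fit 2.89% were lower and 1.6% higher, so a single call in a list of this size is not a result about the list. CHKA, BTG1 and SIK1 were chosen after their values were seen.

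**Figure D5:**
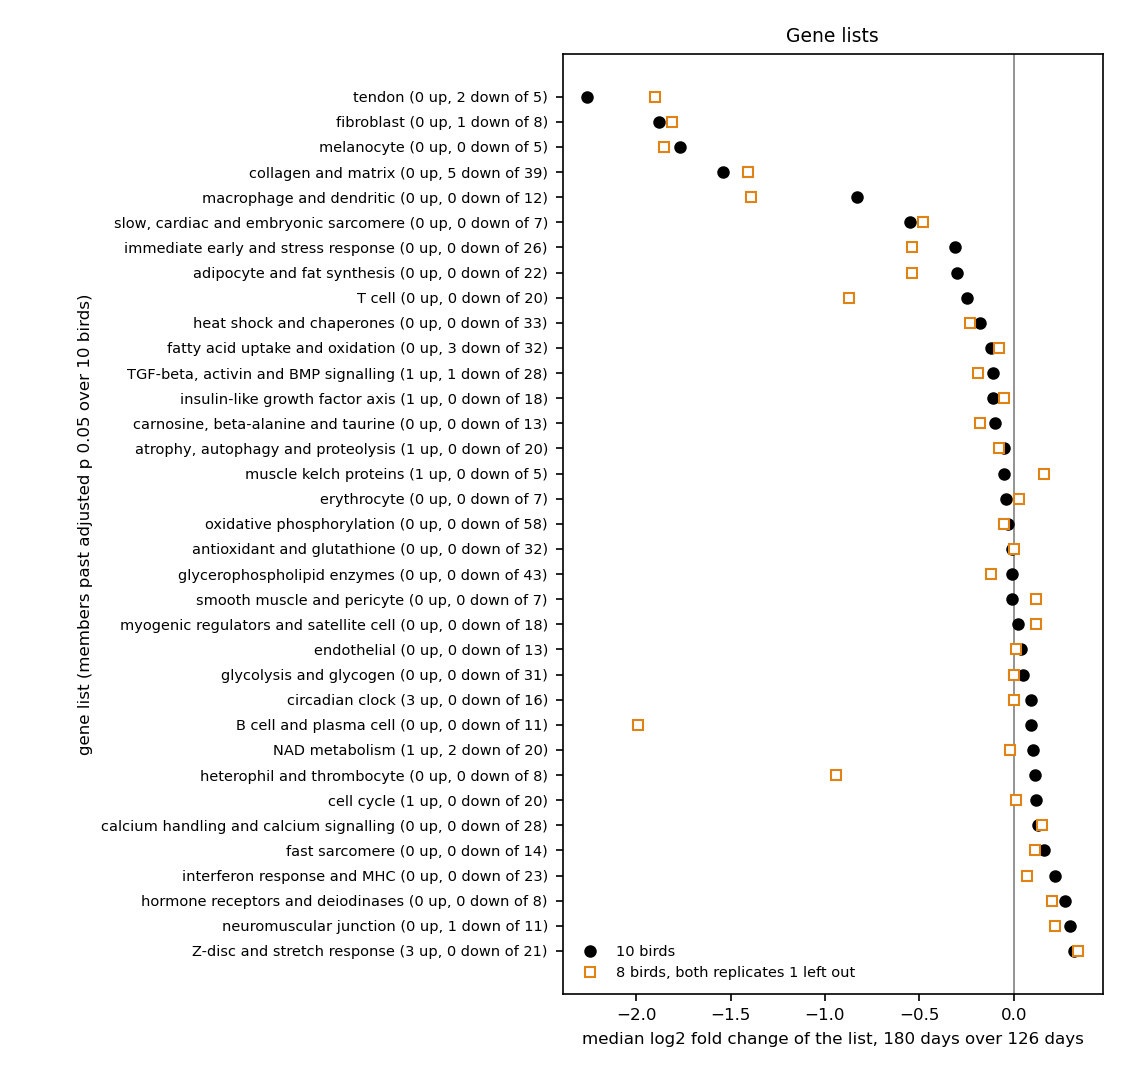
Median log2 fold change at 180 days over 126 days of each gene list with 5 or more members tested, over 10 birds (filled circles) and over 8 birds with both replicates 1 left out (open squares), with the members past an adjusted p of 0.05 beside each name. Tendon, fibroblast, melanocyte and matrix genes have the most negative medians (-2.26, -1.88, -1.77 and -1.54), and the B cell square rests on 4 genes.

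The melanocyte median rests on 1 bird and on genes near the minimum level. Without the 126-day replicate 5 only 2 of its genes were tested and the median was -0.29. The summed level of the list was 24.8 to 46.8 FPKM at 180 days and 22.9 to 41.7 FPKM at 126 days, with overlap.

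Fat cells were of interest because the study followed fat in the meat, and reported that the lipid content of breast muscle rose with age. None of 22 genes of adipocytes and fat synthesis passed over 10 birds (median -0.30). PLIN1, the coat protein of fat cell droplets, lay between 0.18 and 0.36 FPKM at 180 days and between 0.63 and 1.51 FPKM at 126 days, without overlap, and was chosen after its values were seen. PLIN1 gave -1.54 ± 0.37 (adjusted p = 0.0669) over 10 birds and -1.57 ± 0.36 (adjusted p = 0.0393) without the pair. Its mean was 0.244 FPKM at 180 days and 0.924 FPKM at 126 days. It was thus near the minimum of 0.5 FPKM and met it only through the younger birds. PNPLA2, the triglyceride lipase, had 71.1, 41.2, 52.6, 11.1 and 10.1 FPKM at 180 days and 80.7, 105.6, 77.2, 55.01 and 78.99 FPKM at 126 days. For PNPLA2 the change was -1.47 ± 0.51 (adjusted p = 0.179), and -1.79 ± 0.51 (adjusted p = 0.0758) without the pair. ME1, which supplies NADPH for fat synthesis, gave 0.37 ± 0.18 (adjusted p = 0.352). A further 3 genes passed without the pair but not over 10 birds, and were chosen after their values were seen: CAMK2A, a calcium-dependent kinase (1.33 ± 0.25, adjusted p = 0.0213), PPP1R3C, which brings phosphatase to glycogen (1.64 ± 0.35, adjusted p = 0.0301), and ESR1, the oestrogen receptor (1.39 ± 0.26, adjusted p = 0.0211). Over 10 birds they gave 1.53 ± 0.36 (adjusted p = 0.0629), 1.38 ± 0.36 (adjusted p = 0.0894) and 0.99 ± 0.36 (adjusted p = 0.208). Their single highest entries over 10 birds gave 0.88 (adjusted p = 0.421), 1.38 (adjusted p = 0.159) and 0.16 (adjusted p = 0.951). ESR1 in the 126-day replicate 1 was at 2.41 FPKM, inside the 1.57 to 2.99 FPKM of the 180-day birds.

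Of 9 genes with a symbol that the study names for these ages, 4 passed here (HSPB7, KLHL30, TGFB3 and PIK3C2B, all higher) and 3 were tested and did not. Of all genes tested 1.25% passed. The study took these genes from its own differentially expressed genes and lists this series among its data. Their passing here is therefore not independent support. With 1 bird left out, HSPB7 passed in 3 of 10 fits, PIK3C2B in 6, KLHL30 in 8 and TGFB3 in 10. Of the 3 that did not pass, CSRP3 is given above. PCSK1, a prohormone convertase, had 0.19, 1.15, 0.64, 0.54 and 3.24 FPKM at 180 days and 0, 0.14, 0.41, 0.14 and 0.06 FPKM at 126 days. PCSK1 gave 2.05 ± 0.68 (adjusted p = 0.167) over 10 birds and 2.18 ± 0.57 (adjusted p = 0.0587) without the pair. TAL2, a transcription factor of the bHLH family, had 0.44, 0.64, 1.11, 0.9 and 2.55 FPKM at 180 days and 0.32, 0.16, 0.58, 0.2 and 0.36 FPKM at 126 days. For TAL2 the change was 1.39 ± 0.48 (adjusted p = 0.181), and 1.65 ± 0.46 (adjusted p = 0.0712) without the pair. SGSM1 and HYDIN were below the minimum of 0.5 FPKM: SGSM1 had 0.46, 0.32, 0.37, 0.54 and 1.1 FPKM at 180 days and 0.37, 0.34, 0.5, 0.29 and 0.15 FPKM at 126 days, and HYDIN had 0.23, 0.19, 0.3, 0.26 and 0.53 FPKM at 180 days and 0.12, 0.1, 0.1, 0.05 and 0.12 FPKM at 126 days.

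The levels at 42 days, the age of the remaining 5 birds, show where some of these genes, chosen after their values were seen, stood earlier, and are described with no test. MICAL2 lay between 22.3 and 49.6 FPKM at 42 days, between 134.5 and 214.3 FPKM at 126 days and between 22.6 and 51.2 FPKM at 180 days, so that only the middle age was high. TNC had the same order, with 0.16 to 4.79 FPKM at 42 days, 5.98 to 29.7 FPKM at 126 days and 0.85 to 5.59 FPKM at 180 days, and DDX3X likewise, with 250.1 to 554.7, 929.8 to 1548 and 410.8 to 522.4 FPKM. TNS1 was low at both earlier ages, with 9.63 to 24.2 FPKM at 42 days, 17.0 to 23.6 FPKM at 126 days and 51.5 to 71.6 FPKM at 180 days. PPM1K was lowest at 126 days, with 5.30 to 16.1 FPKM at 42 days, 1.84 to 5.19 FPKM at 126 days and 10.3 to 25.0 FPKM at 180 days. MGP was high at both earlier ages, with 36.7 to 84.0 FPKM at 42 days, 14.5 to 132.1 FPKM at 126 days and 1.76 to 9.48 FPKM at 180 days. COL4A1 had 48.4 to 168.6 FPKM at 42 days, 52.6 to 131.7 FPKM at 126 days and 27.8 to 36.1 FPKM at 180 days.

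Of the DEGs with a symbol, the 32 rises beyond the 12 largest had log2 fold changes between 1.01 and 1.80, and the 32 falls beyond the 12 largest between -2.26 and -1.01. Of the 52 genes named here that passed the test, 12 passed in each of the 10 fits with 1 bird left out. These are ANKRD2, PPM1K, TGFB3, RTKN and TNS1 among the rises and MXRA5, MICAL2, ETNPPL, NAMPTP1, NMRK2, SMYD1 and DDX3X among the falls. The other 40 lost the threshold in at least 1 of these fits, and many in most of them. LTBP2, PER3 and SIRT4 passed in 1 of the 10 fits. MB, TMEM63C, TNMD, TNC, CXCL14, DECR1, SPARC and TPX2 passed in 2, and LMCD1, WNK2 and FKBP1B in 9. The DEGs numbered 378, 15, 21, 45 and 44 without the 180-day replicates 1 to 5 in turn, and 71, 49, 57, 62 and 81 without the 126-day replicates 1 to 5. With the highest entry of a gene in place of the sum of its entries, 38 of the 52 lost the threshold, SPARC (adjusted p = 0.496) and ACSL1 (adjusted p = 0.611) among them, each the highest p over the alternatives, of which the lowest were 0.0039 and 0.0121.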

How the data were processed

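Breast muscle RNA of 15 hens was sequenced as paired-end reads, and the 10 birds of 180 and 126 days were compared here. The deposited values are FPKM with 2 decimals, which the authors made before deposit from reads filtered with Cutadapt and mapped with HISAT2; the submitters' processing notes name HISAT2 2.2.1 and StringTie 2.1.6. The genome build is not given in the sources used here, so no positions are printed. The low values showed no steps of whole reads, so depth and counting error are unknown. FPKM of the 48836 entries were summed over 23599 gene names (12100 had 1 entry). No column belonged to other samples.

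With limma 3.58.1 in R 4.3.3, a model with a trend and no covariate was fitted to log2(FPKM + 0.1) of genes with a mean FPKM of at least 0.5, and p was adjusted by Benjamini-Hochberg over all genes. The pseudocount understates the change of low genes. The authors used DESeq2, which needs counts. The fit was first tested on simulated data. Of 884 symbols in 37 gene lists, 763 were found, 15 of them under another RefSeq name (GRCg7b). The comparison, members and lists were chosen with earlier results of these data known, and lists are described by counts and medians only.

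Genes named are the 12 largest rises and falls among DEGs with a symbol whose ages do not overlap without both replicates 1, each list member past the test, up to 2 members with the highest FPKM of lists without a call, 9 genes with a symbol that the study names (2 without one are not described), 6 immune genes, ACSL1 (a DEG with overlap), and 24 genes chosen after their values were seen, beside single genes so marked. Replicates are separate birds per the labels. Alternatives were a pseudocount of 1, no filter or a mean FPKM of at least 1, rescaled and quantile-normalized values, all 3 ages, a replicate block, the highest entry of each name, array weights, robust empirical Bayes, both replicates 1 left out, and each bird left out.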

Additional observations from a re-analysis of the deposited data

Results flagged for a closer look

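In each age the highest or lowest of the 5 birds was set against the nearest other bird of that age, for every named gene, and called far out where that gap exceeded 0.71 of the range of the 5 (Dixon's 95% limit). Chance alone gives about 1 in 20 where values are normally distributed, and 40 of 184 groups of birds were far out. The 2 shares cannot be set against each other as a test, since several of the genes were chosen for their values in replicate 1. The gaps were also taken on FPKM and not on the log2 scale, so the rate of 1 in 20 need not hold. Of the 40, 12 were a high value in the 180-day replicate 1 and 20 a high value in the 126-day replicate 1, the birds rich in leukocyte transcripts. The values below are FPKM of that bird, with the nearest other bird of its age in parentheses.

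The 180-day replicate 1 was high for the leukocyte genes CD3E 36.9 (nearest 2.79), IL7R 4.51 (nearest 0.55), JCHAIN 486.8 (nearest 5.39), PTPRC 54.9 (nearest 3.47), C1QA 7.68 (nearest 1.62), CSF1R 35.05 (nearest 3.41), C1QB 7.44 (nearest 1.25), IGLL1 2571 (nearest 31.9) and S100A12 287.97 (nearest 1.81). It was also high for the fibroblast and collagen genes COL1A2 27.9 (nearest 10.02), COL3A1 71.7 (nearest 27.9) and PDGFRA 7.16 (nearest 2.07).

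The 126-day replicate 1 was high for the leukocyte genes CD3E 10.1 (nearest 4.81), IL7R 2.46 (nearest 1.06), PTPRC 11.2 (nearest 5.75), C1QA 19.01 (nearest 7.27) and CSF1R 14.9 (nearest 6.56). Among the other genes it was high for MGP 132.1 (nearest 34.9), DPT 55.98 (nearest 13.4), MXRA5 35.03 (nearest 13.02), CXCL14 20.7 (nearest 7.47), ETNPPL 183.3 (nearest 96.1), COL4A1 131.7 (nearest 71.04), SPARC 347.9 (nearest 118.2), LAMB1 46.8 (nearest 21.5), COL3A1 476.8 (nearest 112.5), COL6A3 84.7 (nearest 26.4), LUM 98.6 (nearest 28.2), DCN 544.6 (nearest 118.7), MMP2 209.2 (nearest 47.3), PDGFRA 19.7 (nearest 7.41) and ESR1 2.41 (nearest 0.92). It was low for CAMK2A 1.63 (nearest 4.78).

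The 180-day replicate 5 was high for MB 192.6 (nearest 35.4), KLHL30 51.7 (nearest 34.2) and SGSM1 1.1 (nearest 0.54). At 126 days replicate 4 was high for MB 18.7 (nearest 4.65) and low for HYDIN 0.05 (nearest 0.1), replicate 5 was high for TGFB3 20.3 (nearest 10.3), and replicate 3 was high for DDX3X 1548 (nearest 1045). The part of these single birds in each gene's result is given by the values without both replicates 1 and with each bird left out.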

How the results depend on the processing

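Against 106 DEGs (54 higher, 52 lower) and 5 matrix genes lower, no filter on FPKM gave 53 (32 and 21) and 0, the highest single entry per name 20 (11 and 9) and 1, array weights 427 (177 and 250) and 22, and both replicates 1 left out 336 (108 and 228) and 22. Quantile normalization gave 28 higher, 33.3% of its 84 DEGs, against 50.9%, and all 3 ages in one fit gave 105, 41.9% of them higher. A pseudocount of 1 gave 75, a mean FPKM of at least 1 gave 112, rescaled FPKM 106 and robust empirical Bayes 107. With each bird left out in turn the DEGs ran between 15 (without 180 days replicate 2) and 378 (without 180 days replicate 1), those higher between 7 and 131, those lower between 8 and 247, and the matrix genes lower between 0 and 23. All 106 DEGs kept their direction and an unadjusted p under 0.05 under a pseudocount of 1, no filter, rescaling, quantile normalization, array weights, robust empirical Bayes and without both replicates 1; with the highest entry 103 of 105 kept the direction and 94 that p. The 106 were chosen by their p in the same birds, so keeping direction and an unadjusted p under 0.05 adds no separate support. The cause of the differences between settings was not tested.

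Replicate numbers were not taken as pairing the birds, since replicates are separate birds per the labels. The deviations of same-number birds had correlations of -0.027 to 0.319, 4 of 5 over 0.1, and 2 of 5 numbers correlated best with their own. Whether birds of the same number shared a step was not tested. The replicate block gave 270 DEGs (105 higher, 165 lower), 22 matrix and 4 macrophage genes lower, and 3 clock genes higher with 2 lower.

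Of 52 named genes past the test, only the fold change of LAMA2 turned round, to 1.46 with the highest entry. Among named genes not past it, the highest entry turned MYL1 to -0.05 and PTPRC to 2.1, a pseudocount of 1 turned S100A12 to 0.07, and both replicates 1 left out turned PKLR to -0.03. With birds left out, the sign was not fixed for TPM1 (between -0.1 and 0.02), MYL1 (-0.07 and 0.14), PKLR (-0.07 and 0.11), HSPA2 (-0.74 and 0.25), HSP90AA1 (-0.4 and 0.16), CD3E (-1.07 and 0.02), PTPRC (-0.99 and 0.15) and S100A12 (-2.82 and 0.05). Depth is unknown, and FPKM of 2 decimals limit the precision of genes at the level of PRTG or HYDIN.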
